A study of Mus musculus with 3 samples.

Results

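The data describe 10 transcription factors of mesenchymal cells, Twist1, Twist2, Prrx1, Prrx2, Tcf21, Nr2f1, Nr2f2, Meox1, Msx1 and Mecom, in single cells of the embryonic mouse thymus. They were taken as a list by name from the 27998 genes counted, and their unique molecular identifiers (UMIs, 1 per captured RNA molecule) were followed across Pdgfra-positive cells and all other named cells of 3 droplet libraries. All libraries came from C57BL/6 embryos at gestational day 13 to 13.5, whose thymic lobes were digested with trypsin. Of these, 1 was a wild-type control, 1 came from Tbx1neo2/neo2 embryos, in which a neomycin cassette sits in an intron of both copies of Tbx1, and 1 from Foxn11089/1089 embryos, homozygous for a small deletion within Foxn1. Both alleles are present in every cell of the embryo, and both models have small thymuses. The study profiled the lobes to compare the cell types of the normal and the hypoplastic thymus. No genotype had a replicate library, so none of the differences between genotypes was tested, and every 95% interval given here covers counting error only.

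The thymic mesenchyme surrounds the epithelial rudiment, is largely of neural crest origin at this stage, and supplies growth factors and matrix. Twist1 and Twist2 are basic helix-loop-helix (bHLH) proteins that keep mesenchyme undifferentiated and bind DNA as dimers with E proteins. Prrx1, Prrx2, Msx1 and Meox1 are homeodomain proteins of craniofacial and paraxial mesenchyme, and Tcf21 is a bHLH protein of organ-associated fibroblasts. Nr2f1 and Nr2f2 (COUP-TFI and COUP-TFII) are orphan nuclear receptors, and Nr2f2 also sets venous identity. Mecom (Evi1) is a zinc finger protein with a PR domain in its long form, known from blood stem cells and endothelium.

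The control library, the library labelled Tbx1neo2/neo2 and the Foxn11089/1089 library held 82936619, 137498422 and 204655055 UMIs and kept 5932, 5516 and 11772 cells, with medians of 13410, 20732.5 and 14652 UMIs a cell. Tbx1 itself was counted at a low level and was not lower in the library labelled Tbx1neo2/neo2. Its UMIs per 1000000 UMIs (CPM) over all kept cells were 1.39, 4.81 and 5.43 in that order, from 114, 656 and 1102 UMIs. Pdgfra-positive cells held 64, 254 and 170 of these, among 13409506, 44484410 and 44583168 UMIs of all genes. The study describes Tbx1 as not expressed in the embryonic thymus. Such low counts from mixed cells cannot check the genotype, so its name is used below as a label. Foxn1 was at 90.2, 127 and 174 CPM of the epithelial UMIs, and a small deletion need not change a 3' count. Between 16 and 24 barcodes were shared by each pair of libraries.

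Pdgfra-positive cells numbered 5966 of 23220 kept cells: 1333 in the control, 1644 in the library labelled Tbx1neo2/neo2 and 2989 in the Foxn11089/1089 library. The 10 genes were kept out of the clustering that defined these cells. Pdgfra, the receptor for platelet-derived growth factor that gives the cells their name, stood at 194, 256 and 268 CPM in them and at 1.7, 4.3 and 6.1 CPM in the other cells. They fell into a Sfrp2-high group of 787, 1125 and 1936 cells, an Aldh1a2-positive group of 536, 330 and 1028 cells and an Acta2-high group of 10, 189 and 25 cells. Parts without the markers of the other groups were called Sfrp2-high at 2-fold or more of the Sfrp2 CPM of the Aldh1a2-positive group. Over the libraries Sfrp2 was at 63.4 CPM in the Aldh1a2-positive group and from 367 to 2144.5 CPM in the parts called Sfrp2-high. It was at 1476 CPM in the Acta2-high group, so Sfrp2 does not set those 2 groups apart. The name Pdgfra-positive fitted the Acta2-high group least, where Pdgfra was at 29.1, 46.4 and 48.0 CPM while the smooth muscle actin gene Acta2 was at 4969, 4351 and 5426 CPM. Markers of other classes were low in the Pdgfra-positive cells (Epcam 2.91, 4.14 and 8.12 CPM, Ptprc and Cdh5 below 1 CPM), but the hemoglobin gene Hba-a1 was at 41.2, 37.3 and 298 CPM, and its part in the results was not tested. The other cells, 4067, 2032 and 6570 in number, were epithelial, endothelial, hematopoietic, red blood, mesothelial and neural crest glial and neuronal cells and clusters led by Pth and by Foxe1.

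The 3 genes past 2-fold in the Foxn11089/1089 library, of which Mecom and Nr2f2 were also past it in the library labelled Tbx1neo2/neo2, are shown first by the DNA just upstream of their starts. RefSeq (GRCm38.p6) gave such windows for 9 of the 10 genes, 11 windows in all, each read here as the 250 bases before the start on the gene's own strand, 5' to 3'. A set of 4 motifs was searched on both strands: the E-box CANNTG that bHLH proteins bind, the homeodomain core TAATTA, the nuclear receptor core AGGTCA and the T-box core TCACACCT, with no overlap among the matches printed. Matches are in capitals. Mecom, minus strand, has an inner start with the window chr3:30013205-30013454 and a far upstream start with the window chr3:30509760-30510009. Nr2f2, minus strand, has the window chr7:70366747-70366996, and Prrx1, minus strand, chr1:163313651-163313900.
Mecom inner start: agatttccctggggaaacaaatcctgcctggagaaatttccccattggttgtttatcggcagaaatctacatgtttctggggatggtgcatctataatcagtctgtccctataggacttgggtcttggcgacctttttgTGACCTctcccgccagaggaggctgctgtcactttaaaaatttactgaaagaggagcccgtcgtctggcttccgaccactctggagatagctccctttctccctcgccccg
Mecom upstream start: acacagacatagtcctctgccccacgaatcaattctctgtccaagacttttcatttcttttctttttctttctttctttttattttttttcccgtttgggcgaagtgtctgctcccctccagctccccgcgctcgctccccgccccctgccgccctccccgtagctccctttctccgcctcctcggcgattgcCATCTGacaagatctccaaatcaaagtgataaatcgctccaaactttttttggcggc
Nr2f2: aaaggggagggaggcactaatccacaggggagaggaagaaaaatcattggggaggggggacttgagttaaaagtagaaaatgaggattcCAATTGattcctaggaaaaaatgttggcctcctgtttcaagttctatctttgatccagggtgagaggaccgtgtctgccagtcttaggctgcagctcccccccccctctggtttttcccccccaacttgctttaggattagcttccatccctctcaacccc
Prrx1: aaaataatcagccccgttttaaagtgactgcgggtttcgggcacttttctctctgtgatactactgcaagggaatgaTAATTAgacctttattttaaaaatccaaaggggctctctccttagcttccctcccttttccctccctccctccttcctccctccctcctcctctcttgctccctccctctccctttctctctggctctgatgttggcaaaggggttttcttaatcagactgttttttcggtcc
The inner Mecom window held TGACCT, which is AGGTCA read from the other strand, the upstream one the E-box CATCTG, Nr2f2 the E-box CAATTG and Prrx1 TAATTA. Of the 11 windows 4 held an E-box, against 66.2% of all 32851 windows of this length. Of the same windows 1 held TAATTA (4.84% of all), 1 AGGTCA (14%) and 0 TCACACCT (1.12%). Counts taken at the 3' end do not tell the starts of Mecom apart. Its gene body (GENCODE M21, chr3:29951296-30548008) overlaps 5 other genes on the same strand and 2 on the opposite strand, and Prrx1 (chr1:163245119-163313710) overlaps 2 and 1. How the counting split reads between overlapping genes is not given in the sources used here, so these counts are uncertain to that extent. Twist1 (chr12:33957671-33959829), Prrx2 and Msx1 overlap no other gene.

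All 10 genes marked Pdgfra-positive cells in at least 1 library by a wide margin. Of these, 9 were at least 2-fold higher in Pdgfra-positive than in other cells in all 3 libraries, where 11.3% of all genes were. The list is of mesenchymal factors and was chosen with earlier results of these data known, so this is not an independent result. By library the counts were 10, 10 and 9, beside 18.9%, 17.9% and 16.9% of genes. All 10 passed the minimum of 30 UMIs. The median log2 ratio over the genes was 4.85, 3.74 and 3.47.

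Tcf21, the organ fibroblast factor, had 258 CPM (95% interval 250 to 267) in Pdgfra-positive cells of the control, 82.4 (79.7 to 85.1) in the library labelled Tbx1neo2/neo2 and 162 (159 to 166) in the Foxn11089/1089 library, and 2.30, 3.45 and 3.03 CPM in other cells. Its ratios were 112 (95.7 to 133), 23.9 (21.1 to 27.0) and 53.6 (48.6 to 59.2). Prrx1 had 185, 251 and 437 CPM against 1.85, 5.36 and 10.3 in other cells, ratios of 99.8, 46.8 and 42.4. These 2 genes had over 76% of their UMIs in Pdgfra-positive cells in every library, for Prrx1 91.6%, 85.4% and 83.4%, while those cells held 16.4%, 32.6% and 21.98% of all UMIs. Twist1 was 30.9, 15.7 and 23.3 times and Twist2 14.4, 21.6 and 30.7 times higher in Pdgfra-positive cells. Prrx2, the paralogue of Prrx1, was 34.7, 25.4 and 6.70 times higher, and Msx1 14.8, 5.76 and 10.4 times. Among the nuclear receptors Nr2f1 was 19.1, 6.88 and 11.7 times and Nr2f2 30.8, 2.84 and 10.4 times higher, so the contrast of Nr2f2 was smallest in the library labelled Tbx1neo2/neo2. Mecom had ratios of 7.69, 5.44 and 7.29.

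**Figure D1:**
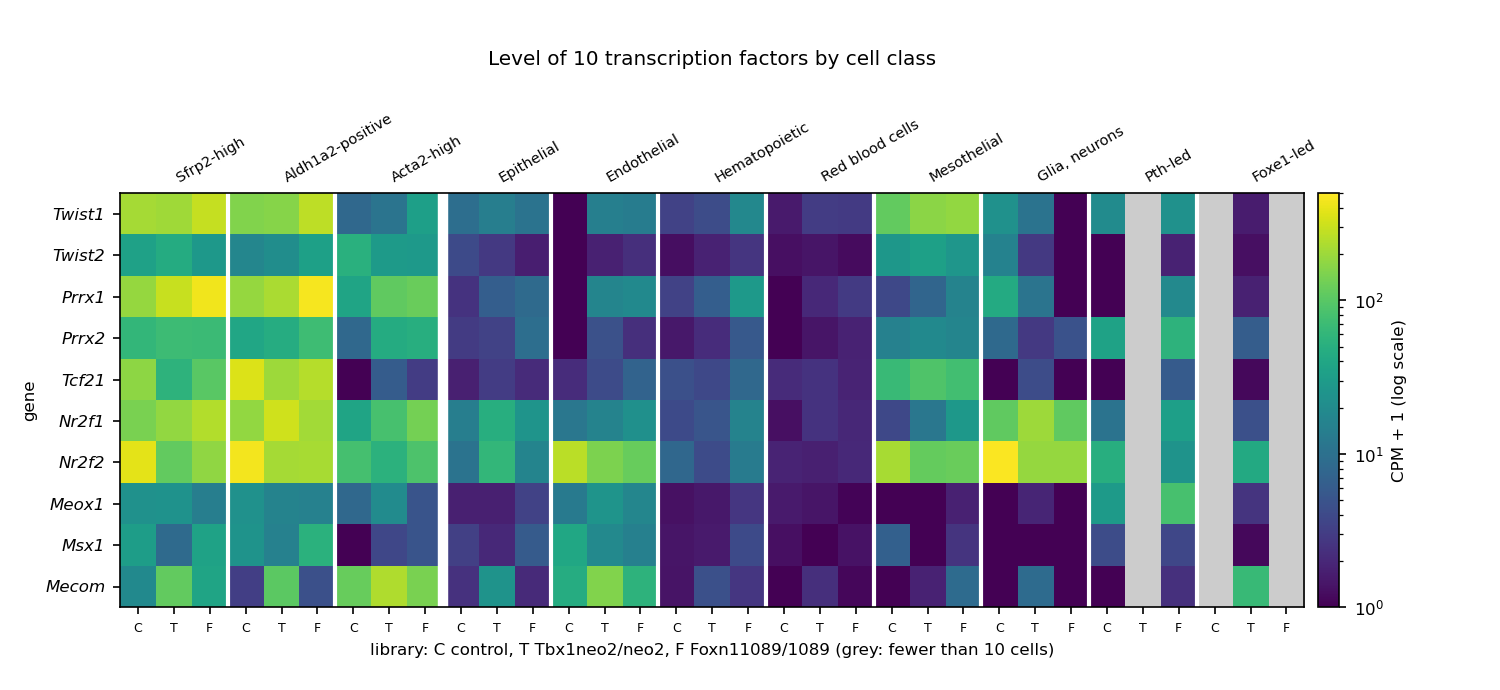
Level of each gene (rows) in the 3 groups of Pdgfra-positive cells and 8 classes of other cells (columns, 3 libraries each), as CPM plus 1 on a log colour scale; grey marks fewer than 10 cells. Red blood cells stay at or below 2.05 CPM for every gene, while Nr2f2 is also high in endothelial, mesothelial and glial cells and Meox1 in the Pth-led cluster of the Foxn11089/1089 library.

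Meox1, a homeodomain gene of somites, was the exception. It had 22.1, 20.2 and 13.7 CPM in Pdgfra-positive cells, ratios of 26.9 and 11.3 in the first 2 libraries and 1.46 (1.33 to 1.61) in the Foxn11089/1089 library, where other cells held 9.37 CPM. The cluster led by Pth, the parathyroid hormone gene, had 28.9 CPM of Meox1 in 35 control cells and 81.5 CPM in 390 Foxn11089/1089 cells. It held 3 cells in the library labelled Tbx1neo2/neo2. Without that cluster all 10 genes were at least 2-fold higher in every library. Prrx2 was also found there, at 35.3 and 54.1 CPM.

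Several of the genes were also counted in other classes. Endothelial cells had 260, 147 and 118 CPM of Nr2f2 and 46.2, 153 and 54.4 CPM of Mecom, with 67, 191 and 158 cells. Mesothelial cells had 112, 168 and 180 CPM of Twist1, 66.4, 89.9 and 74.8 CPM of Tcf21 and 222, 113 and 119 CPM of Nr2f2, from 36, 40 and 65 cells. Neural crest glia and neurons, 17, 99 and 19 cells, had 110, 198 and 108 CPM of Nr2f1 and 475, 188 and 187 CPM of Nr2f2. So Nr2f2 was lower than in the control in both mutant-labelled libraries in these 3 classes as it was in Pdgfra-positive cells. Epithelial cells went the other way, with 9.75, 60.8 and 15.6 CPM of Nr2f2. Mecom in epithelial cells was 16.1 (12.02 to 22.01) times higher in the library labelled Tbx1neo2/neo2 than in the control, 23.1 against 1.44 CPM. The make-up of the endothelial and epithelial classes differed between the libraries. Clustered without integration, 0, 54 and 3 cells formed an endothelial cluster of their own led by Fbln5 and Gja4. In the same clustering 0, 59 and 6 cells formed a cluster led by Sox2 and Foxa2, genes of the foregut and airway lining, and 4, 174 and 13 cells one led by Foxe1 and Nkx2-1. The part of these cells in the endothelial and epithelial values was not tested. Hematopoietic cells of the Foxn11089/1089 library held 27.9 CPM of Prrx1 and 17.2 of Twist1, against 2.4 of each in the control. All of the genes were higher there than in the control, from 1.78 times for Nr2f2 to 11.7 times for Prrx1. Barcodes scored as likely doublets made up 8.75% to 24% of the hematopoietic clusters, and their part in these values was not tested.

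Of the 3 groups of Pdgfra-positive cells, the one with the highest level was the same in every library for 4 of the 10 genes, which is near the 43.7% of all genes, and changed between libraries for the other 6. Twist1 was highest in the Sfrp2-high group, at 217, 205 and 286 CPM against 153, 162 and 265 CPM in the Aldh1a2-positive group. The gap was 1.42-fold (1.31 to 1.54) in the control and 1.08-fold (1.04 to 1.12) in the Foxn11089/1089 library. Tcf21 was highest in the Aldh1a2-positive group, at 357, 200 and 249 CPM against 171, 55.2 and 102 CPM, that is 2.09 (1.94 to 2.24), 3.63 (3.39 to 3.88) and 2.44 (2.33 to 2.56) times higher. Nr2f2 was also highest there, by 1.16, 1.94 and 1.25 times. Mecom was highest in the Acta2-high group, at 116, 237 and 142 CPM, though the control had only 10 such cells.

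Of the 2 large groups, the same one was higher in all libraries for those same 4 genes, a smaller share than the 72.5% of all genes. Twist2 was 2.10 and 2.25 times higher in the Sfrp2-high than in the Aldh1a2-positive group of the control and of the library labelled Tbx1neo2/neo2, but 0.80 times (0.72 to 0.89) in the Foxn11089/1089 library. Msx1 was 1.32 times higher in the Sfrp2-high group of the control and 0.52 and 0.66 times in the other libraries. Prrx1 was at 185, 297 and 432 CPM in the Sfrp2-high and 187, 226 and 453 CPM in the Aldh1a2-positive group, and the 2 groups did not differ beyond counting error in the control (0.99, 0.91 to 1.07). Acta2-high cells held little Tcf21 (0, 5.0 and 2.0 CPM, the first allowing up to 21.8 CPM) and little Twist1 (7.3, 9.9 and 32.0 CPM), but 50.8, 28.4 and 28.0 CPM of Twist2.

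These groups were divided into 8 subclusters, and 4 of them, numbered 0 to 3, held at least 100 cells of every library. Subcluster 0 was the Aldh1a2-positive group, and subclusters 1 (led by Grin3a, Stmn2 and Shisa3), 2 (Sdpr, Sfrp2, Cobl) and 3 (Cxcl13, Gsc, Maf) were parts of the Sfrp2-high group. Together they took in 94.8%, 62.7% and 89.3% of the Pdgfra-positive cells. Subcluster 3 stood apart in several of the genes. It had 84.5, 44.9 and 57.5 CPM of Meox1, higher in every library than in subclusters 0 to 2, where Meox1 lay between 3.7 and 24.5 CPM. It also had more Twist2 (86.1, 40.1 and 57.1 CPM) than those subclusters. It had 112.9, 79.1 and 59.7 CPM of Nr2f2, the lowest of the 4 subclusters in each library, and 22.1, 76.8 and 76.0 CPM of Nr2f1, again the lowest. Subcluster 1 had the most Twist1 of the 4 in each library, 276, 236 and 395 CPM. The small subcluster 7, led by Agtr2 and Col14a1 with Hoxc6 among its leading genes, was almost all from the library labelled Tbx1neo2/neo2 (191 cells, against 3 and 10), and had 413 CPM of Twist1, 93.9 of Twist2 and 1.6 of Tcf21 there.

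Between the library labelled Tbx1neo2/neo2 and the control, Mecom was higher and Tcf21, Nr2f2 and Msx1 were lower in Pdgfra-positive cells, each by more than 2-fold. Thus 1 of the 10 genes was at least 2-fold higher and 3 were at least 2-fold lower, beside 18.7% and 3.64% of the 13741 genes tested. The median log2 ratio was 0.08 over the 10 genes and 0.40 over all genes. With median-of-ratios size factors every ratio was lower, and the 4 genes stayed past the limit.

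Mecom had 11.5 (9.74 to 13.4), 130 (126 to 133) and 24.2 (22.7 to 25.6) CPM in the 3 libraries. The ratio of the library labelled Tbx1neo2/neo2 to the control was 11.3 (9.62 to 13.3), from 5766 and 154 UMIs, and the 3 intervals do not overlap. With size factors it was 8.56, and with the 3 groups weighted equally 3.31. Nr2f2 had 414 (404 to 425), 126 (123 to 130) and 195 (191 to 199) CPM, a ratio of 0.305 (0.294 to 0.317) for the library labelled Tbx1neo2/neo2, and Tcf21 had a ratio of 0.319 (0.304 to 0.334). Msx1 had 27.1 (24.4 to 30.1), 8.50 (7.66 to 9.40) and 41.5 (39.6 to 43.4) CPM, a ratio of 0.313 (0.270 to 0.362).

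The other 6 genes stayed within 2-fold. Prrx1 had a ratio of 1.36 (1.30 to 1.42), Prrx2 1.22 (1.12 to 1.33) and Nr2f1 1.25 (1.19 to 1.31), but with size factors the last 2 were 0.92 and 0.95 and Prrx1 was 1.03, so their direction depends on the scaling. Twist2 was at 36.4 against 25.5 CPM, a ratio of 1.43 (1.27 to 1.61), or 1.08 with size factors and 0.93 with the groups weighted equally. Twist1 had a ratio of 0.891 (0.851 to 0.933) and Meox1 one of 0.916 (0.802 to 1.05). The paralogues thus differed within this library. Nr2f2 was lower while Nr2f1 was not lower by this scaling, and Tcf21 was lower while the bHLH genes Twist1 and Twist2 stayed near the control.

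**Figure D2:**
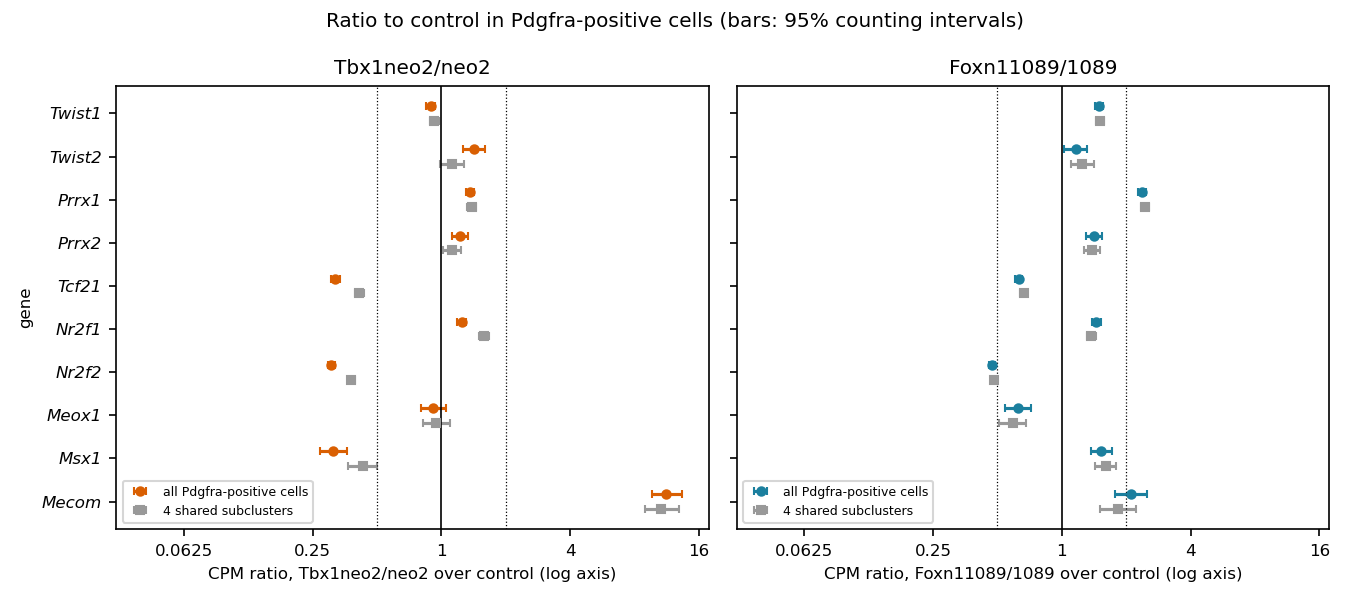
Ratio of CPM to the control (log axis) for each gene, in all Pdgfra-positive cells (coloured circles) and in the 4 subclusters with at least 100 cells of every library pooled (grey squares), left for the library labelled Tbx1neo2/neo2 and right for the Foxn11089/1089 library; bars are 95% counting intervals and dotted lines mark 2-fold. Mecom at 11.3 on the left and Nr2f2 at 0.305 and 0.470 lie beyond the dotted lines, and grey and coloured points lie on the same side of 1 for every gene.

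The cell make-up of the library labelled Tbx1neo2/neo2 differed from the control: the Aldh1a2-positive group made up 20.1% of its Pdgfra-positive cells against 40.2%, and the Acta2-high group 11.5% against 0.75%. Within the 4 shared subclusters the same 4 genes passed the limit, beside 16.6% and 2.98% of genes, with ratios of 10.7 for Mecom, 0.414 for Tcf21, 0.379 for Nr2f2 and 0.429 for Msx1. Without the Acta2-high cells the same genes passed too, beside 18.1% and 3.38% of genes. Nr2f2 was lower in each of subclusters 0 to 3, by ratios of 0.476, 0.317, 0.353 and 0.700, and Mecom was higher in each. Msx1 was lower in subclusters 0 to 2 (0.616, 0.392 and 0.235) and had 7.1 and 9.4 CPM in subcluster 3. In subcluster 4, led by 1500015O10Rik, Hoxa4 and Hoxa5, with 25, 182 and 82 cells, Mecom had 15.7, 240.1 and 47.9 CPM and Msx1 41.8, 2.5 and 4.5 CPM.

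Tcf21 did not move one way. It was lower in subclusters 0, 1 and 2 (0.562, 0.468 and 0.189), but in subcluster 3 it had 32.4 CPM in the library labelled Tbx1neo2/neo2 against 11.8 in the control, a ratio of 2.74 (1.61 to 5.0), from low counts. In subcluster 4 it had 107 against 41.8 CPM, a ratio of 2.57 (1.29 to 5.98), the control from 8 UMIs. Prrx1 was likewise set apart in subcluster 3, at 79.0, 343 and 184 CPM, a ratio of 4.35 (3.55 to 5.37) against 0.962 to 1.5 in subclusters 0 to 2. Twist2 was lower there, 0.466 (0.368 to 0.593), and Nr2f1 higher, 3.47 (2.36 to 5.29). These differences between subclusters were not tested.

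**Figure D3:**
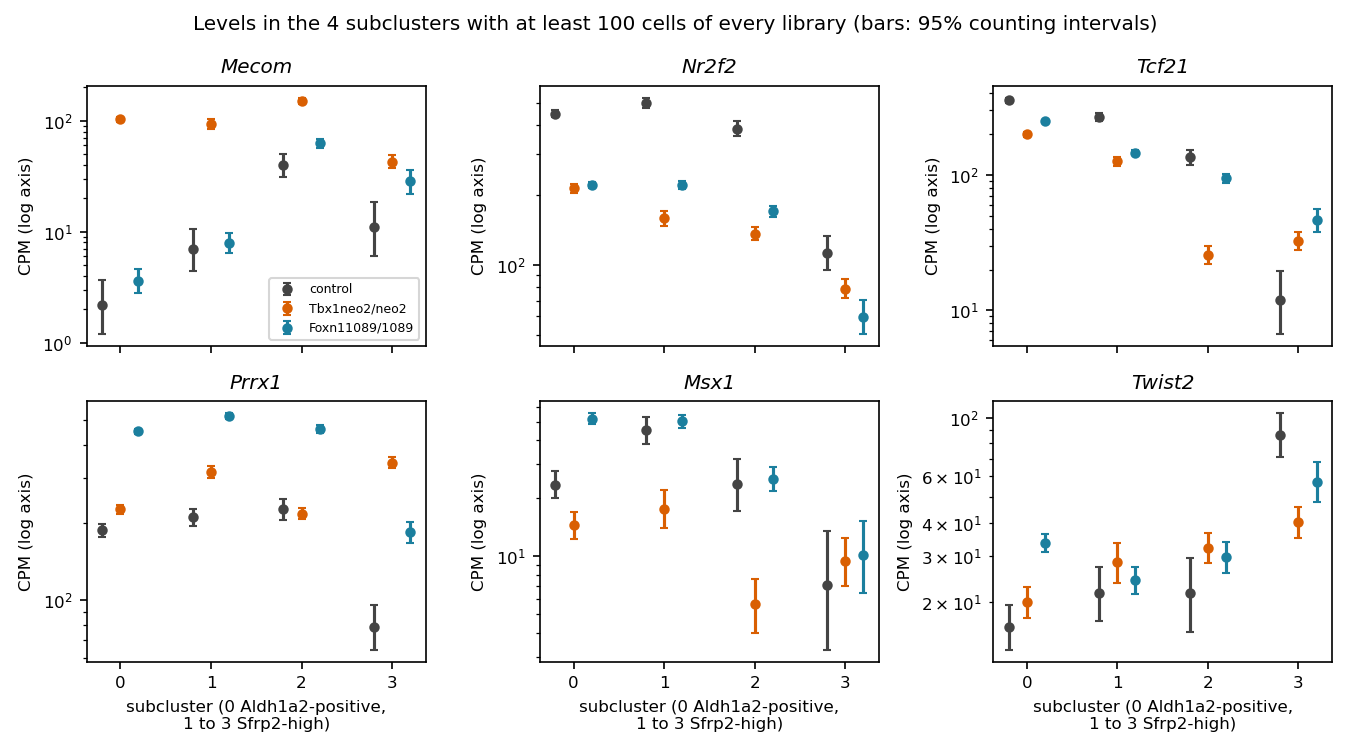
CPM (log axis, with 95% counting intervals) of 6 of the genes in subclusters 0 to 3, for the control (dark), the library labelled Tbx1neo2/neo2 (orange) and the Foxn11089/1089 library (blue). Nr2f2 is highest in the control in each subcluster, while Tcf21 is highest in the control in subclusters 0 to 2 and lowest there in subcluster 3, at 11.8 CPM.

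Mecom in the Aldh1a2-positive group of the library labelled Tbx1neo2/neo2 moved with Hox genes, which mark position along the head-to-tail axis. The group had 2.2, 103 and 3.6 CPM of Mecom, a ratio of 47.4 (28.1 to 87.0) for the library labelled Tbx1neo2/neo2, and 0.93, 82.3 and 0.86 CPM of Hoxa5. Cells with a UMI of Hoxa4, Hoxa5, Hoxc5 or Hoxc6, a set chosen after the data were seen, were 9.38%, 51.5% and 14.2% of Pdgfra-positive cells and 4.10%, 40.0% and 12.9% of this group. These shares were taken without thinning, and the group had medians of 11526.5, 31792.5 and 17214.5 UMIs a cell. The part of depth in the shares, and in the values with and without a Hox UMI, was not tested. Whether tissue next to the thymus was taken along in any library was not tested. In the library labelled Tbx1neo2/neo2 these cells of the group had 214 CPM of Mecom and the remaining ones 19.8 CPM. In the control the values were 11.6 CPM in 22 such cells and 1.78 CPM in the rest, and in the Foxn11089/1089 library 3.12 and 3.69 CPM. Without them the ratio was 11.2 (6.02 to 22.9). Clustered without integration, the group had 2.1, 21.2 and 3.6 CPM. It was then made of 3 subclusters, each mostly from 1 library (528, 10 and 5 cells, 11, 221 and 29 cells, and 17, 11 and 977 cells in the order of the libraries). With cell cycle genes kept in the integrated clustering, the group held 323, 142 and 529 cells. Over the libraries it then had 1.67 CPM of Hoxa5 and 0.434 of the chondrogenic marker Col2a1, against 25.3 and 16.8 CPM as reported. The part of such cells in the ratio of 47.4 was not tested. Over all Pdgfra-positive cells the Mecom ratio was 11.9 (9.89 to 14.3) without the Hox-positive cells, and those of Tcf21, Nr2f2 and Msx1 were 0.330, 0.354 and 0.397, so the 4 genes stayed past the limit. In the Sfrp2-high group Mecom had 118 and 104 CPM with and without a Hox UMI in the library labelled Tbx1neo2/neo2.

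**Figure D4:**
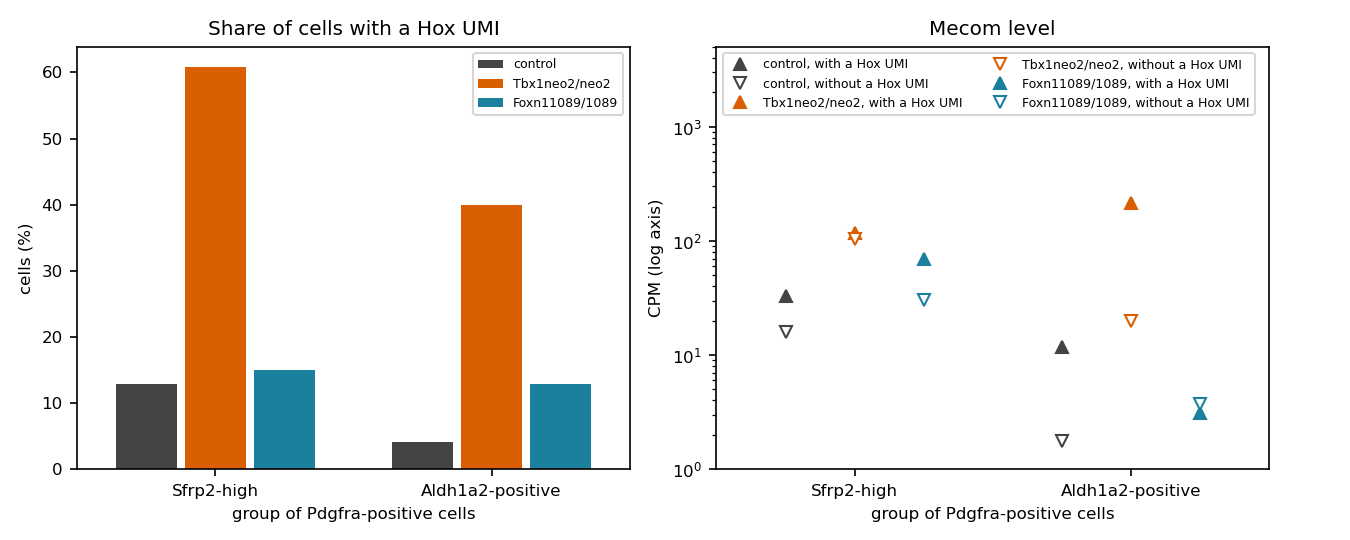
Left, share of cells with a Hox UMI, taken without thinning, in the Sfrp2-high and Aldh1a2-positive groups of the 3 libraries. Right, Mecom CPM (log axis) in cells with (filled) and without (open) a Hox UMI. In the Aldh1a2-positive group of the library labelled Tbx1neo2/neo2 the filled point is at 214 and the open one at 19.8 CPM, still above the open control point at 1.8.

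Between the Foxn11089/1089 library and the control, which is the same control as above, Prrx1 and Mecom were at least 2-fold higher and Nr2f2 at least 2-fold lower in Pdgfra-positive cells. That is 2 and 1 of the 10 genes, beside 6.46% and 3.98% of the 13328 genes tested, and the median log2 ratio was 0.51 over the 10 and 0.22 over all genes. Prrx1 had 437 CPM (431 to 444) against 185 (178 to 192), a ratio of 2.37 (2.27 to 2.47), and lay between 2.06 and 2.47 in each of subclusters 0 to 3. Nr2f2 had a ratio of 0.470 (0.454 to 0.486) and was lower in each of them, from 0.440 to 0.529. Mecom stood at 2.10 (1.78 to 2.51) but at 1.82 (1.5 to 2.23) within the 4 shared subclusters, where Prrx1 alone was past the upper limit and Nr2f2 past the lower, beside 6.4% and 4.22% of genes, and its interval included 1 in subclusters 0 (1.66, 0.925 to 3.20) and 1 (1.13, 0.709 to 1.87). Without the Acta2-high cells the counts were 2 and 1 again, with the same genes, beside 6.51% and 4.04% of genes.

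The remaining genes lay within 2-fold of the control. Twist1 had 275 against 184 CPM, a ratio of 1.49 (1.43 to 1.56), and Prrx2, Nr2f1 and Msx1 had 1.41 (1.30 to 1.54), 1.45 (1.38 to 1.52) and 1.53 (1.36 to 1.71). Tcf21 was lower at 0.628 (0.603 to 0.654) and Meox1 at 0.621 (0.540 to 0.716). Twist2 had 1.16 (1.03 to 1.31), or 0.99 with size factors. In the Aldh1a2-positive group Msx1 was 2.20 (1.86 to 2.63) and Twist2 2.07 (1.68 to 2.58) times higher than in the control, while Mecom had 3.6 and 2.2 CPM. Side by side, Nr2f2 and Tcf21 were below the control in both libraries, and Msx1 was below it in the library labelled Tbx1neo2/neo2 and above it in the Foxn11089/1089 library. Both comparisons use the same control library.

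Cells differed in depth, with medians of 9600, 25369 and 13766 UMIs in Pdgfra-positive cells, so the share of cells with a UMI of each gene was taken after thinning every cell to 5000 UMIs. This left out 84, 64 and 60 shallower cells. Prrx1 was then found in 54.0%, 64.5% and 78.5% of Pdgfra-positive cells, Twist1 in 54.5%, 44.1% and 65.0% and Nr2f2 in 73.5%, 38.8% and 53.9%. Mecom was found in 5.36%, 35.8% and 9.49%, Msx1 in 11.1%, 2.97% and 15.7% and Tcf21 in 45.8%, 22.9% and 38.5%. For all 10 genes the libraries stood in the same order by thinned share as by CPM, and without thinning for 5. Both measures come from the same counts, and no share of all genes is given beside these numbers. Red blood cells, which should lack these genes, gave shares from 0 to 1.46% at the same thinned depth, from medians of 8082, 18618 and 12437 UMIs. In Acta2-high cells Mecom was found in 70.0%, 67.2% and 56.0% of cells, and Tcf21 in 0, 2.12% and 0%. After thinning, the median Pdgfra-positive cell had 3, 3 and 4 of the 10 genes, and 1.20%, 1.84% and 0.683% had none. Twist1 and Prrx1 were found together in 29.2%, 31.6% and 52.8% of these cells, and Tcf21 and Mecom together in 1.20%, 8.04% and 1.40%.

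**Figure D5:**
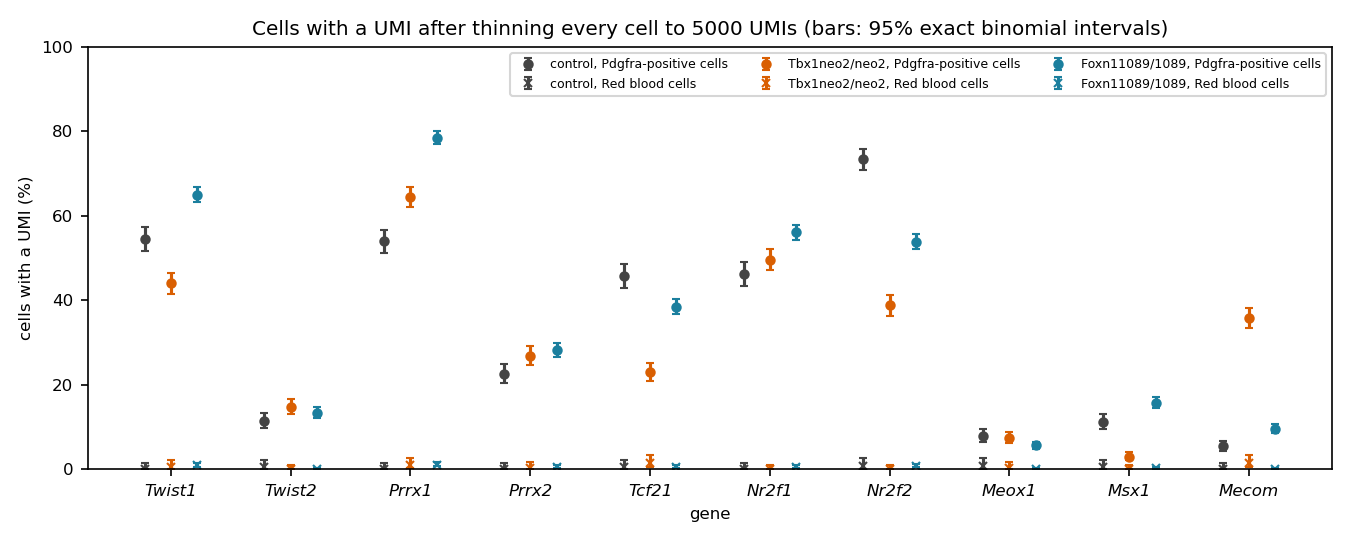
Share of Pdgfra-positive cells (circles) and red blood cells (crosses) with a UMI of each gene after thinning to 5000 UMIs a cell, with exact 95% binomial intervals, by library. Mecom stands at 35.8% in the library labelled Tbx1neo2/neo2 against 5.36% and 9.49%, and every red blood cell share lies at or below 1.46%.

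Dividing cells were compared with the rest within the groups, calling a cell cycling when at least 2 of Mki67, Top2a and Cenpf had a UMI after thinning. In the Aldh1a2-positive group 24.4%, 46.9% and 39.4% of cells were cycling, and free RNA of these genes in the droplets was not tested as a part of such calls. Prrx2 was lower in cycling cells of this group in the control and Foxn11089/1089 libraries, by ratios of 0.602 (0.434 to 0.823) and 0.739 (0.661 to 0.827), with 0.855 (0.713 to 1.03) in the library labelled Tbx1neo2/neo2. Meox1 was lower in all 3, by 0.619, 0.496 and 0.713. Mecom in the library labelled Tbx1neo2/neo2 was higher in the cycling cells of the group, 147 against 54.4 CPM (2.71, 2.36 to 3.11), while in the control and Foxn11089/1089 libraries it lay between 2.0 and 3.8 CPM in both. Cells with a Hox UMI in this group of the library labelled Tbx1neo2/neo2 had 214 CPM of Mecom and the rest 19.8 CPM. Whether the cycling cells differed from the others in such cells was not tested.

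Related factors, 24 partners and relatives of the 10 genes, were followed in the same cells. In the library labelled Tbx1neo2/neo2 23 had at least 30 UMIs, of which 9 were at least 2-fold higher and 1 lower than in the control, beside 18.7% and 3.64% of all genes, with a median log2 ratio of 0.56 against 0.40 over all genes. Within the 4 shared subclusters 6 were higher and 1 lower, beside 16.6% and 2.98%. Higher over all Pdgfra-positive cells were Meox2, the paralogue of Meox1 (6.01, 4.08 to 9.20), Prdm16, a relative of Mecom (4.25, 3.29 to 5.56), Msx2, the paralogue of Msx1 (4.14, 2.31 to 8.19), Shox2 (3.64), Id4, an inhibitor of bHLH dimers (3.19), Alx4 (2.51) and, with few UMIs, Hand1 (2.31, 0.985 to 6.62). Tcf15, a bHLH factor of somites, was lower (0.438, 0.367 to 0.523). Msx2 was thus at 3.71 against 0.89 CPM where Msx1 was at 8.50 against 27.1 CPM.

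In the Foxn11089/1089 library 22 were tested, of which 7 were at least 2-fold higher and 1 lower, beside 6.46% and 3.98% of all genes. The median log2 ratio was 0.56 against 0.22 over all genes. Within the 4 shared subclusters 7 were higher and 2 lower, beside 6.4% and 4.22%. Over all Pdgfra-positive cells Id1 (2.91), Id2 (2.39) and Id4 (2.20), inhibitors of bHLH dimers, were higher. So were Tcf12 (2.68), an E protein partner of Twist1 and Tcf21, Prdm16 (2.50), Shox2 (2.05) and Meox2 (2.02). Id3, the other inhibitor of this family and named after its values were seen, went the opposite way within 2-fold, at 886 against 1266 CPM (0.700, 0.687 to 0.713), and was at 736 CPM in the library labelled Tbx1neo2/neo2 (0.582, 0.571 to 0.593).

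Across 30 points, the groups and classes of each library with at least 10 cells, each gene was set against 14032 others by the Pearson correlation of log2(CPM + 10). These points share 3 libraries and are a description. Pdgfra and Dcn were among the markers used to name Pdgfra-positive clusters, so matches with them follow in part from how the points were made. Prrx1 was most like Pdgfra (0.959) and then Gm26523 (0.955), which overlaps it on the same strand. Twist1 was most like Dcn (0.946) and Zim1, Twist2 like Cd248 (0.951) and Pcolce, and Nr2f1 like Vcan (0.943) and Nsg1. Tcf21 was most like Nkain3 (0.936) and Frem1, Nr2f2 like Cmtm3 (0.916) and Npdc1, and Mecom like Lmcd1 (0.905) and Mfge8. Prrx2 (Gfra4, 0.886, and Col12a1), Msx1 (Raet1d, 0.855, and Ramp2) and Meox1 (Ccdc126, 0.837, and Sparcl1) had less close matches. Among the 10, Twist1 and Tcf21 were alike at 0.919, while Mecom and Tcf21 stood at 0.0089.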

How the data were processed

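Single-cell RNA was measured in 3 droplet libraries, 1 per genotype. The values the authors deposited are raw UMI counts per gene and barcode, made per the labels with Cell Ranger 3.0.0 on mm10 (Seurat is also named), without normalization. The counting mode for overlapping genes is not given in the sources used here. No per-sample column was left unmapped.

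Barcodes with fewer than 200 genes or with 20% or more mitochondrial UMIs were dropped (478, 243 and 675). The 3 libraries were integrated and clustered in Seurat 5.3.0 (R 4.3.3) on 2000 variable genes without the 10 genes, with 30 components at resolution 0.3, and Pdgfra-positive clusters again with 20 components at 0.4. Classes needed 3 markers at least 2-fold higher, with 10 CPM added to each side. Clusters without a name (513, 1658 and 2111 cells), 147 chondrogenic-like cells, 40 low-Sfrp2 cells led by Ibsp, 78 cells with red blood cell markers and 38 likely doublets stayed outside both sides of the comparisons. Scrublet in scanpy 1.11.5 marked 329, 265 and 1239 likely doublets (0.8% per 1000 barcodes), which were kept otherwise.

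CPM is a gene's UMIs over all UMIs of a class, times 1000000, with exact Poisson intervals. Ratios have exact conditional binomial and shares Clopper-Pearson intervals (scipy 1.17.1). Intervals were tested on simulated data. A ratio counted as past the limit at 2-fold, among genes with at least 30 UMIs, and a count of 0 allows up to 3. All 10 genes are named, each with the 2 genes most like it among those with 300 UMIs, and related factors past the limit, up to 8, largest first, except 1 that is not reported here. The genes and lists were chosen with earlier results of these data known. Alternatives covered filters, doublets, depth, clustering, weighting, scaling and limits.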

Additional observations from a re-analysis of the deposited data

Results flagged for a closer look

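Some ratios to the control lay on opposite sides of 1 in different cells, with both counting intervals excluding 1 and at least 1 of them past 2-fold. With 1 library per genotype none of these differences was tested. For the library labelled Tbx1neo2/neo2, Tcf21 was 2.74 times the control in subcluster 3 and 0.189 times in subcluster 2, and Twist2 was 1.49 times in subcluster 2 and 0.466 times in subcluster 3. For the Foxn11089/1089 library, Tcf21 was 3.89 (2.26 to 7.20) times the control in subcluster 3 and 0.541 times in subcluster 1, and Twist2 was 2.07 times in the Aldh1a2-positive group and 0.663 times in subcluster 3.

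Epithelial cells and Pdgfra-positive cells also differed in direction. Nr2f2 was 6.23 (5.54 to 7.02) times the control in epithelial cells of the library labelled Tbx1neo2/neo2 and 1.60 (1.41 to 1.81) times in those of the Foxn11089/1089 library, where Pdgfra-positive cells had 0.305 and 0.470. In the Foxn11089/1089 library Meox1 was 3.24 times in epithelial and 0.621 times in Pdgfra-positive cells, and Twist2 0.233 and 1.16 times, but epithelial cells of these 2 libraries held at most 2.99 CPM of either gene.

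The clusters without a name, with medians of 808, 917 and 1588 UMIs a cell, entered no comparison. In them 8 of the 10 genes lay above the level of red blood cells in all 3 libraries, with intervals that do not overlap. No share of all genes is given beside this count, so it is not a result about these genes. Prrx1 had 57.0, 72.3 and 127 CPM in these clusters and Nr2f2 109, 58.1 and 66.5 CPM. Not all of these cells were shallow. A cluster of 29, 101 and 238 of them, led by the muscle genes Actc1, Myog and Ttn, had a median of 29496.5 UMIs. Scrublet marked 67.9% of its cells as doublets. CPM weights deep cells more, and the share of this cluster in the values given was not tested.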

How the results depend on the processing

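No paired analysis was possible because each genotype has 1 library. Of 240 ratios of single genes to the control under 12 alternatives, 171 moved by less than the counting interval, 69 moved by more, and 0 changed sides of 1 among those past the limit. For the library labelled Tbx1neo2/neo2, the counts of 1 higher and 3 lower held under all alternatives, with Mecom from 3.31 (groups weighted equally) to 12.02, Tcf21 from 0.242 to 0.494, Nr2f2 from 0.231 to 0.412 and Msx1 from 0.237 to 0.455. For the Foxn11089/1089 library, Prrx1 stayed between 2.03 and 2.46. Its count of higher genes was 1 in place of 2 with the mean of CPM over cells, with median-of-ratios size factors, with equal weights and in the 4 shared subclusters, since Mecom (1.34 to 2.23) fell under the limit. At a limit of 1.5-fold it had 3 higher and 3 lower genes, and its count of lower genes was 0 with equal weights, where Nr2f2 was 0.531. Of the related factors, size factors gave 5 higher and 2 lower in the library labelled Tbx1neo2/neo2 and 4 higher and 2 lower in the Foxn11089/1089 library, a 1.5-fold limit gave 2 lower in the first and 11 higher and 2 lower in the second, a minimum of 100 UMIs gave 0 lower in the second, and leaving out Hox-positive cells gave 5 higher in the first. No share of all genes is given beside the counts in this section, which show only how they depend on the setting. Without thinning, 5 genes kept the order by CPM. The cause was not tested. The Hox-positive, shared subcluster, Acta2-high and other-cell alternatives were chosen after seeing the data. The 9 genes higher in Pdgfra-positive cells of all libraries were 9 or 10 under every alternative, and the highest group was the same for 4 to 6 genes. The Acta2-high values of the control rest on 10 cells.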

Other observations

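Small sets of cells left outside the comparisons carried some of the 10 genes. In the library labelled Tbx1neo2/neo2, 134 chondrogenic-like cells, with Col2a1, Sox9 and Col9a3 among their leading genes, had 454 CPM of Mecom, 238 of Tcf21 and 213 of Prrx1. In the same library 40 cells led by Ibsp, Ifitm5 and Smpd3, genes of bone-forming cells, had 236 CPM of Twist1, 344 of Prrx1 and 108 of Prrx2, and Tcf21 was at 0, which allows up to 2.66 CPM. The control held 3 and 0 such cells and the Foxn11089/1089 library 10 and 0. A cluster led by Foxe1, 101 cells of the library labelled Tbx1neo2/neo2, had 64.2 CPM of Mecom and 42.8 CPM of Nr2f2.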
